A study of Mus musculus with 15 samples.

Results

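The chemokine gene Xcl1 and 7 genes of conventional dendritic cells (cDCs), namely Xcr1, Clec9a, Flt3, Flt3l, Zbtb46, Itgae and Itgax, were followed in mouse cardiac and hepatic allografts after transplantation. The 8 genes were listed for what they are known to do, and all their probes were taken through the transcript accession that the array gives for each probe. Of the 8 genes, 7 had a named probe, with 10 probes between them, out of 41174 probes and 32301 genes on the array. Clec9a, a receptor with which cDC1 cells sense dead cells, was not analysed here.

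The data came from 15 single-colour Agilent arrays of Cy3-labelled total RNA, 3 for each of 5 groups. In the cardiac allografts at postoperative day 5 (POD5), the heart of a C57BL/10 (B10, H-2b) donor had been placed in the abdomen of a CBA (H-2k) recipient. In the hepatic allografts at POD5 and POD8, a B10.BR (BR, H-2k) liver had replaced the liver of a B10.D2 (D2, H-2d) recipient. The cardiac and hepatic controls are labelled as normal heart and normal liver, whereas the study's account of its results speaks of isografts, so they are called controls here. All mice were male and weighed 25 to 30 g, and their ages and the strain of the controls are not given in the sources used here. Surgery was done under isoflurane and oxygen, and no source names another agent given to any group. Each organ had 1 pair of strains and 1 operation, so organ, strains and operation cannot be told apart. The methods speak of separate case and control tissues, but the labels do not tie the arrays of a group to animals, so P-values measure the spread between these arrays, which may be technical.

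Dendritic cells take up antigen in tissues and show it to T cells. The cDC1 branch, which depends on the transcription factors Batf3 and Irf8, is known for passing antigen of dead cells to CD8 T cells. It carries XCR1, the receptor of XCL1, and XCL1 is a chemokine that activated CD8 T cells and natural killer (NK) cells release. Flt3l is the growth factor of all cDCs and acts through the receptor Flt3, Zbtb46 is a transcription factor of the cDC lineage, Itgae encodes CD103 and Itgax encodes CD11c. In grafts, dendritic cells of donor and recipient are known to prime the T cells that reject the tissue.

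The labelled tissues were checked first. The hepatocyte genes Alb, Apoa1 and Ttr were well above background on all hepatic arrays and on no cardiac array. The other hepatocyte gene tested, Cyp3a11, was so on all hepatic arrays, with group means of 14.93 to 15.92. It was also well above background on 2 of 3 arrays of each cardiac group, at means of 3.83 in allografts and 2.58 in controls. The summed signal of 5 cardiomyocyte genes was 287039 to 598468 on the cardiac arrays against 430 to 1675 on the hepatic ones. Between 52.5% and 70.5% of the probes of an array were well above background. The hepatic controls were dim, with a 75th percentile of the processed signal of 87.7 to 216 against 938 to 1154 in the cardiac controls. The 3 cardiac allografts shared 1 slide and the 3 cardiac controls another, so in the heart the slide cannot be told apart from the group. No slide held both hepatic allografts at POD5 and hepatic controls, or hepatic allografts of both days. With slide as a random block the members called there were 2 and 0, as without it. Over all 41155 probes at POD5, 496 were then called higher and 77 lower, against 1301 called without the block. Since no slide held both groups, such a block cannot tell slide from group there. One slide held 2 hepatic allografts at POD8 and 2 hepatic controls, and values within it are given below. All values are log2 signals after quantile normalization, a difference is an allograft mean minus the mean of its organ's controls on that scale, and errors are the SD of 3 arrays for levels and the SE for differences. In whole tissue, more cells of a type and more RNA per cell cannot be told apart.

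Xcl1, the ligand, was higher in all 3 allograft groups than in the controls. In the cardiac allografts its log2 signal was 10.97, 11.93 and 11.98, against 5.68, 5.18 and 4.69 in the controls. All 3 allografts lay more than 5 units above the highest control. The difference was 6.44 ± 0.38, a fold of 87.0 (limma, adjusted P = 0.000838). In the liver, the 3 controls read 3.21, 2.94 and 4.20, and none of them was well above background. The hepatic allografts read 8.15, 8.28 and 8.47 at POD5 and 8.36, 8.37 and 8.02 at POD8, so the allograft groups overlapped with each other and lay clear of the controls. Since the control level is only a bound, folds were taken against the dimmest signal that still counted as well above background on each array. On that bound, Xcl1 was higher by at least 15.7-fold at POD5 and by at least 15.1-fold at POD8. The fitted differences were 4.85 ± 0.36 (adjusted P = 0.00934) and 4.80 ± 0.36 (adjusted P = 0.00526). With normexp background correction they were 2.27 and 2.20, still past the threshold but smaller than these bounds. The bounds thus hold for the main normalization only. The POD5 call was lost without the first hepatic allograft (adjusted P = 0.057) or the second (adjusted P = 0.0631). Xcl1 was among the genes that the study itself chose on these samples, so its direction is not independent evidence. The study also measured Xcl1 by quantitative RT-PCR and reports more of its mRNA in cardiac and hepatic allografts than in isografts.

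**Figure D1:**
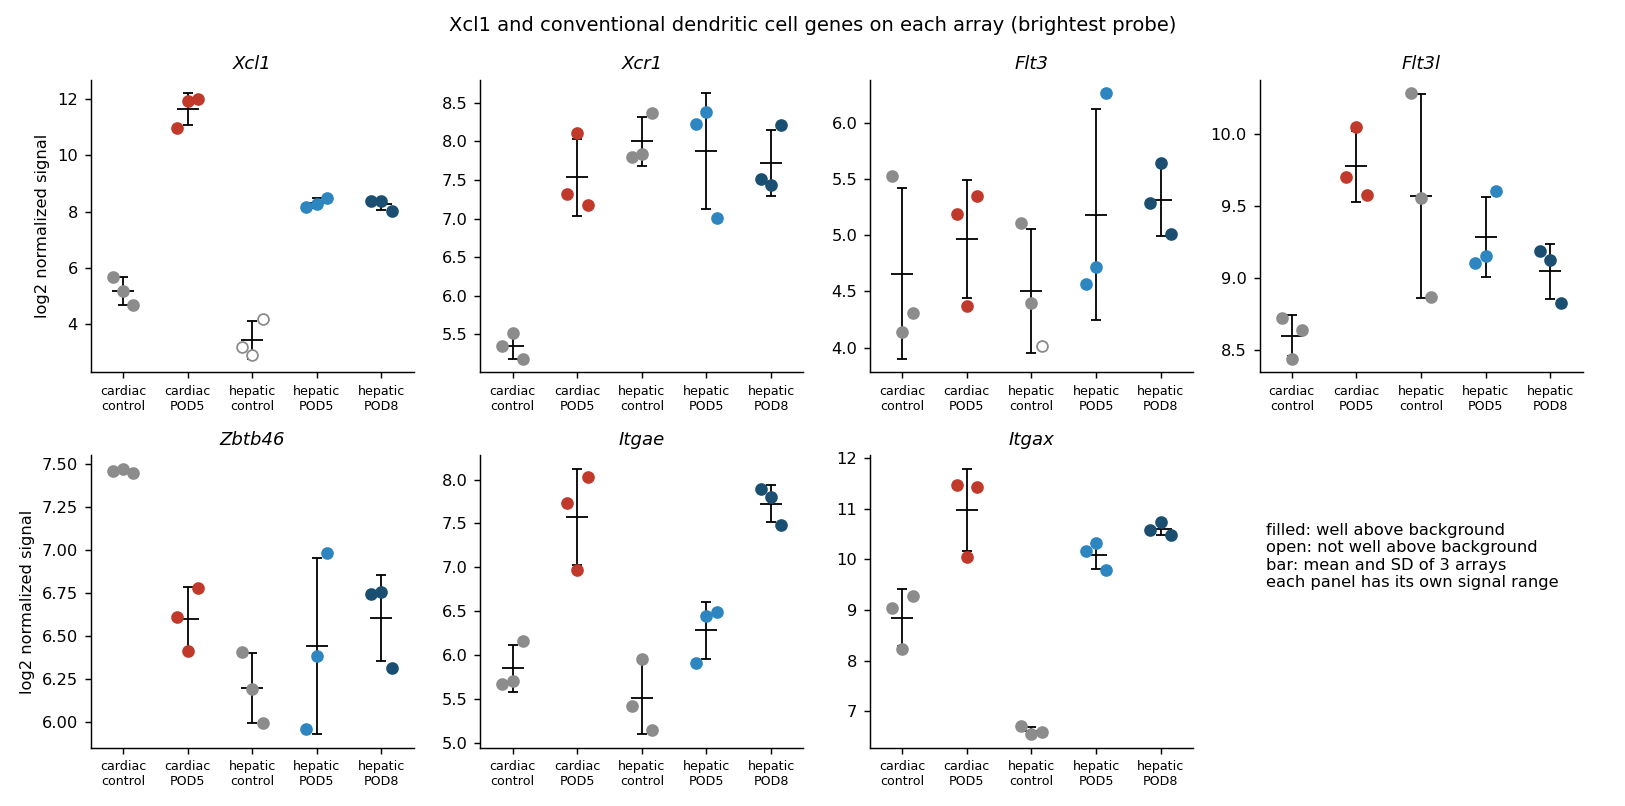
Log2 normalized signal (vertical axis, a range of its own for each gene) of the brightest probe of 7 genes on each of the 15 arrays, by group (horizontal axis). Points are arrays, filled where the probe was well above background and open where it was not, and bars give the mean and SD of 3 arrays. The cardiac allografts sat above their controls for Xcl1, Xcr1, Flt3l, Itgae and Itgax and below them for Zbtb46.

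The order of the 5 groups for Xcl1 ran from cardiac allografts (11.63 ± 0.57) through hepatic allografts at POD5 (8.30 ± 0.16) and POD8 (8.25 ± 0.20) to cardiac controls (5.18 ± 0.50) and hepatic controls (3.45 ± 0.66). Only the hepatic allograft groups, neighbors in that order, overlapped. Between POD8 and POD5 the difference was -0.05 ± 0.15 (95% confidence interval -0.42 to 0.32). The hepatic controls being below background, the excess of the cardiac over the hepatic difference at POD5 has no measured size. As fitted it was 1.59 ± 0.55 and missed the threshold (adjusted P = 0.083). It passed with scaling to the 75th percentile (1.81, adjusted P = 0.0326), with normexp background correction (2.69, adjusted P = 0.00115), with 1 fit of all 5 groups (adjusted P = 0.0484) and without the first cardiac allograft (1.92, adjusted P = 0.0445).

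Genes of T and NK cells, the known sources of Xcl1, were read beside it. All 14 that were tested rose in the cardiac allografts, 10 rose in the POD5 liver and 12 in the POD8 liver. Of all genes, 15.5%, 2.50% and 3.54% rose in these comparisons. Their summed signal was 2002 to 2804 in the cardiac controls and 119023 to 171756 in the allografts. In the liver it was 938 to 1276 in the controls, 22890 to 34467 at POD5 and 32757 to 39896 at POD8. Cd8a, Ncr1, Klrk1, Eomes and Prf1 were above background on no hepatic control array. Cd8a, the chain that marks cytotoxic T cells, was 65.0-fold higher in the heart and, at POD5 in the liver, at least 104-fold higher. Ifng, which encodes interferon gamma, was higher by 10.56 ± 0.39 in the heart and by 5.79 ± 0.47 and 6.19 ± 0.37 in the liver. The part of these cells in the signal of Xcl1 was not tested.

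Over the 15 arrays, the signals of Slamf8, Gbp2, Cxcl10, Gbp6 and Socs1 lay closest to Xcl1 among 18871 genes. Likeness was the root mean square distance of log2 signals after each gene was centered on its own mean, and it came to 0.605, 0.627, 0.633, 0.669 and 0.675 for the 5 genes in that order. Gbp2 and Gbp6 encode guanylate-binding proteins, Cxcl10 a chemokine and Socs1 an inhibitor of cytokine signaling, all known to be induced by interferon. Slamf8 is a surface receptor of myeloid cells. Slamf8 read 13.60, 14.06 and 13.89 in the cardiac allografts against 7.68, 7.18 and 7.50 in the controls. All 5 genes were higher in the allografts in each of the 3 comparisons with controls, with differences of 4.77 to 6.39 for the heart, 3.71 to 4.91 for the POD5 liver and 4.33 to 4.95 for the POD8 liver (limma, adjusted P at most 0.0168). These genes were picked for their likeness to Xcl1, so these differences are a description.

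**Figure D2:**
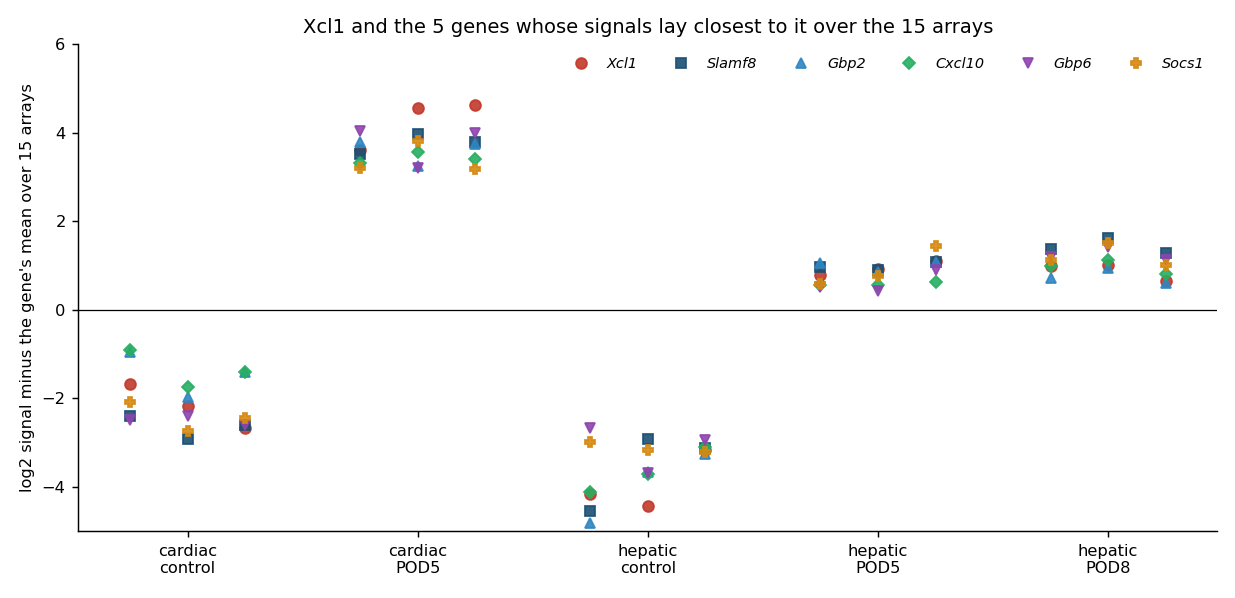
Log2 signal minus the gene's own mean over the 15 arrays (vertical axis) for Xcl1 and the 5 genes closest to it, with the 3 arrays of each group side by side (horizontal axis). Each point is 1 array, and for all 6 genes the cardiac allografts are highest and both hepatic allograft groups lie between them and the controls.

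The bases before the start of transcription are shown for Xcl1, for 2 of the genes closest to it in signal and for Flt3l, the 1 listed gene whose window holds an interferon-type motif, so that the windows can be read side by side. They are RefSeq windows of 250 bases on GRCm38.p6, read 5′ to 3′ toward the start, and 7 of the 8 listed genes and 4 of the 5 genes like Xcl1 had such a window. The Xcl1 window is chr1:164935523-164935772 on the minus strand, that of Gbp2 chr3:142620413-142620662 on the plus strand, that of Cxcl10 chr5:92348890-92349139 on the minus strand and that of Flt3l chr7:45136433-45136682 on the minus strand. Capitals mark matches to the ISRE core (2 copies of GAAA with any 2 bases between them), which interferon regulatory factors are known to bind, or to the AP-1 motif TGANTCA, on either strand, and no match to one overlapped a match to the other. The GAS motif TTCNNNGAA was searched too and had no match in any of these windows.
Xcl1: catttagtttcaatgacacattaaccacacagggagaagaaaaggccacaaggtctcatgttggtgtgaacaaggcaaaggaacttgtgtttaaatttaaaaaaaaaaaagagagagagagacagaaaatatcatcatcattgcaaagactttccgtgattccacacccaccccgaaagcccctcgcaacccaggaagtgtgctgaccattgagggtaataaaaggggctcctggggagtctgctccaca
Gbp2: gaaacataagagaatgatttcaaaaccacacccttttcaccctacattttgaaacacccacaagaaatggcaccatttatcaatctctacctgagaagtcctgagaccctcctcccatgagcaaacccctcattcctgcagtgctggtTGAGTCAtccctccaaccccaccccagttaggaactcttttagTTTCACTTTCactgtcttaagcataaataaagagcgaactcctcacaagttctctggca
Cxcl10: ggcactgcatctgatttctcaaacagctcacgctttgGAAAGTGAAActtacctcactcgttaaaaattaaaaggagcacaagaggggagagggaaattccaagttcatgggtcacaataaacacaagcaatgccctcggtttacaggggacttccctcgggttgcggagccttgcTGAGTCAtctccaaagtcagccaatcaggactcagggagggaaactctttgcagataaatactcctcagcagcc
Flt3l: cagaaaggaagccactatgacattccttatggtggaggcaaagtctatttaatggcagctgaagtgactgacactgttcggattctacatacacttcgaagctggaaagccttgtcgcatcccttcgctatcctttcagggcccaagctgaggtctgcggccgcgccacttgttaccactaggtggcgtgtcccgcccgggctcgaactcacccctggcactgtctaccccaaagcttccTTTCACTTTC

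None of the 3 motifs was found in the Xcl1 window. The ISRE core was found in the windows of Slamf8, Gbp2, Cxcl10 and Socs1, all 4 that had one, and among the listed genes only in that of Flt3l, where it takes the last 10 bases before the start. Of 32851 windows of this length, 2.98% hold an ISRE core, 6.75% an AP-1 motif and 7.02% a GAS motif. The AP-1 motif was found in the windows of Zbtb46 and Itgax and in those of Gbp2 and Cxcl10. A match is a description and not a site, and a missing match says only that these letters are not in this window.

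Xcr1, the receptor of XCL1 and a marker of cDC1 cells, was higher in the cardiac allografts on both of its probes. On the brighter probe, A_51_P345805, the allografts read 7.32, 8.10 and 7.18 and the controls 5.35, 5.51 and 5.18, with no overlap. The difference was 2.19 ± 0.27, a fold of 4.55 (adjusted P = 0.00436). The second probe, A_52_P490159, read 5.79, 3.74 and 5.36 in the allografts, of which the 3.74 was not well above background, and 1.79, 1.62 and 1.68 in the controls, where no array was above background. It was thus at least 5.65-fold higher (adjusted P = 0.0101).

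In the liver the probes of Xcr1 did not give the same picture. The brighter probe read 7.80, 7.83 and 8.37 in the controls, 8.23, 8.38 and 7.01 at POD5 and 7.51, 7.43 and 8.21 at POD8, and all 3 groups overlapped. Its differences from controls were -0.13 ± 0.42 at POD5 (95% confidence interval -1.19 to 0.93) and -0.29 ± 0.28 at POD8 (-0.9996 to 0.43), neither past the threshold. The second probe was above background on no control array, with 3.65, 1.78 and 2.51, and on all hepatic allograft arrays, with 4.53, 4.52 and 4.82 at POD5 and 5.95, 5.94 and 5.81 at POD8. On that probe Xcr1 was at least 2.97-fold higher at POD8 (adjusted P = 0.0304), and at POD5 the bound was 1.22-fold with an adjusted P of 0.107. The direction of Xcr1 in the liver therefore depends on the probe, and which probe follows the transcript was not tested.

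**Figure D3:**
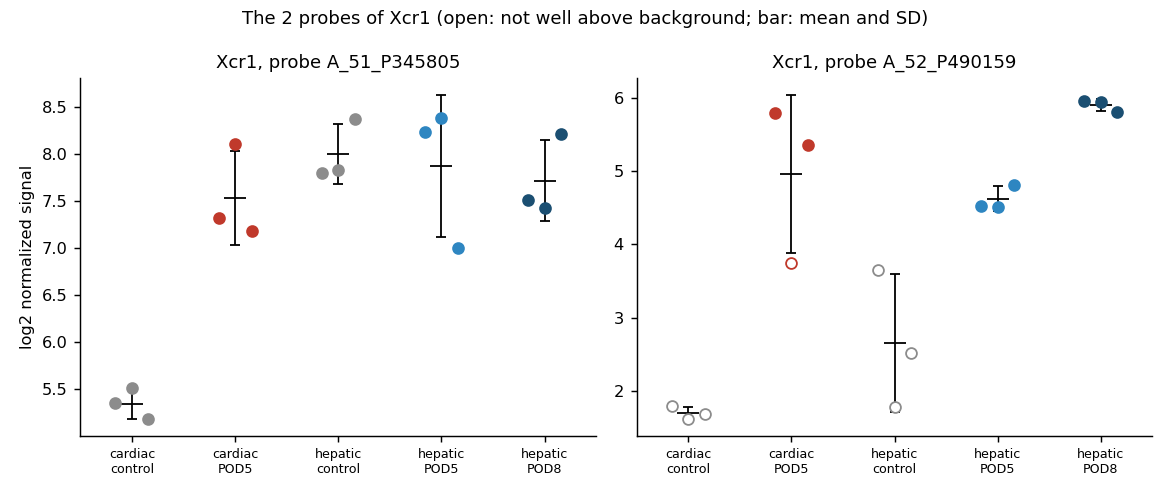
Log2 normalized signal (vertical axes, 1 for each probe) of the 2 probes of Xcr1 on each array, by group (horizontal axis). Filled points are well above background, open points are not, and bars give the mean and SD of 3 arrays. Both probes separate the cardiac allografts from their controls, and in the liver only A_52_P490159 separates allografts from controls.

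Itgae, which encodes CD103, a surface integrin of cDC1 cells and also of CD8 T cells in tissues, rose in the cardiac allografts and, in the liver, at POD8. It read 7.73, 6.97 and 8.03 in the cardiac allografts against 5.67, 5.70 and 6.16 in the controls, with a difference of 1.73 ± 0.31 (fold 3.32, adjusted P = 0.0128). In the liver it read 5.41, 5.96 and 5.15 in the controls, 5.91, 6.45 and 6.49 at POD5 and 7.89, 7.80 and 7.49 at POD8. The POD5 arrays overlapped the controls, and the POD8 arrays lay above all other hepatic arrays. The difference from controls was 0.78 ± 0.28 at POD5 (adjusted P = 0.213) and 2.22 ± 0.25 at POD8 (fold 4.66, adjusted P = 0.0149). Between POD8 and POD5 it was 1.44 ± 0.21, with no overlap and an adjusted P of 0.215. Without any 1 of the 3 POD8 allografts, the POD8 call was lost (adjusted P 0.0557 to 0.0895), and without the first cardiac control the cardiac one was (adjusted P = 0.0517). T and NK cell genes, given above, rose in both comparisons in which Itgae did and also at POD5 in the liver, where Itgae did not pass, and their part in its signal was not tested.

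Itgax, which encodes CD11c, an integrin of dendritic cells and of some macrophages and lymphocytes, was higher in all 3 allograft groups. In the hepatic controls it read 6.70, 6.56 and 6.59. The hepatic allografts read 10.17, 10.32 and 9.78 at POD5 and 10.58, 10.73 and 10.49 at POD8, so both groups lay over 3 units above the controls. The folds were 11.1 at POD5 (difference 3.47 ± 0.18, adjusted P = 0.00558) and 15.8 at POD8 (3.98 ± 0.12, adjusted P = 0.000781). In the heart the controls were higher, at 9.05, 8.23 and 9.28, and the allografts read 11.46, 10.05 and 11.44, a difference of 2.13 ± 0.50 (fold 4.38, adjusted P = 0.0269). This cardiac call was lost without any 1 of 5 of the 6 arrays (adjusted P 0.0598 to 0.0808). The smaller difference in the heart, by 1.34 ± 0.55, did not pass the test (adjusted P = 0.135), although with scaling to the 75th percentile it did (1.45 smaller, adjusted P = 0.0374). Of 9 macrophage and monocyte genes, 2 rose in each comparison with controls, against 15.5%, 2.50% and 3.54% of all genes. Their median difference was 0.12 in the heart, with 5 of 9 above 0, and 1.68 and 2.15 in the liver, with 8 and 9 above 0. Their summed signal was 6010 to 15276 in the hepatic controls, 38561 to 43022 at POD5 and 46437 to 48941 at POD8. In the heart it was 63261 to 84641 in the controls and 147928 to 181399 in the allografts. There the brightest of the 9, Ly6c2, weighed most, at 15.07 in the controls and 16.78 in the allografts. All 9 were above background on at least 1 array of every group. Their part in the signal of Itgax was not tested.

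Flt3l, the growth factor, and Flt3, its receptor, differed in what they showed. Flt3l was higher in the cardiac allografts on both probes. The brighter probe read 9.70, 10.05 and 9.57 against 8.72, 8.44 and 8.64 in the controls, with no overlap and a difference of 1.18 ± 0.16 (fold 2.26, adjusted P = 0.00556), and the other probe gave 1.22 ± 0.26 (adjusted P = 0.0198). In the hepatic controls the brighter probe spread from 8.86 to 10.28, a range that held all 3 POD5 allografts, and the differences of -0.28 ± 0.39 at POD5 and -0.52 ± 0.38 at POD8 did not pass the test. The cardiac difference exceeded the hepatic one at POD5 by 1.46 ± 0.45 (adjusted P = 0.0582), and by 1.44 ± 0.35 on the other probe (adjusted P = 0.0263). Flt3 was well above background on 14 of the 15 arrays and passed no test. It read 5.19, 4.37 and 5.35 in the cardiac allografts and 5.53, 4.14 and 4.31 in their controls, and 4.01 to 6.27 over the hepatic arrays, where 1 control was not well above background. Its groups overlapped throughout, and the intervals of its differences were wide, at -0.87 to 1.49 for the heart and, for the liver, -0.71 to 2.08 at POD5 and -0.03 to 1.65 at POD8.

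Zbtb46 was the member that fell. Besides cDCs, endothelial cells are known to express it. The cardiac controls read 7.46, 7.47 and 7.45 and the allografts 6.61, 6.41 and 6.78, so all allografts lay below all controls. The difference was -0.86 ± 0.12, a fall to 0.55 of the control signal (adjusted P = 0.0056), and it kept its sign and its call under each normalization tried. In the liver the controls read 6.40, 6.19 and 5.99, and the differences of 0.25 ± 0.30 at POD5 and 0.41 ± 0.19 at POD8 did not pass the test. The second probe of Zbtb46 was above background on none of the 15 arrays.

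**Figure D4:**
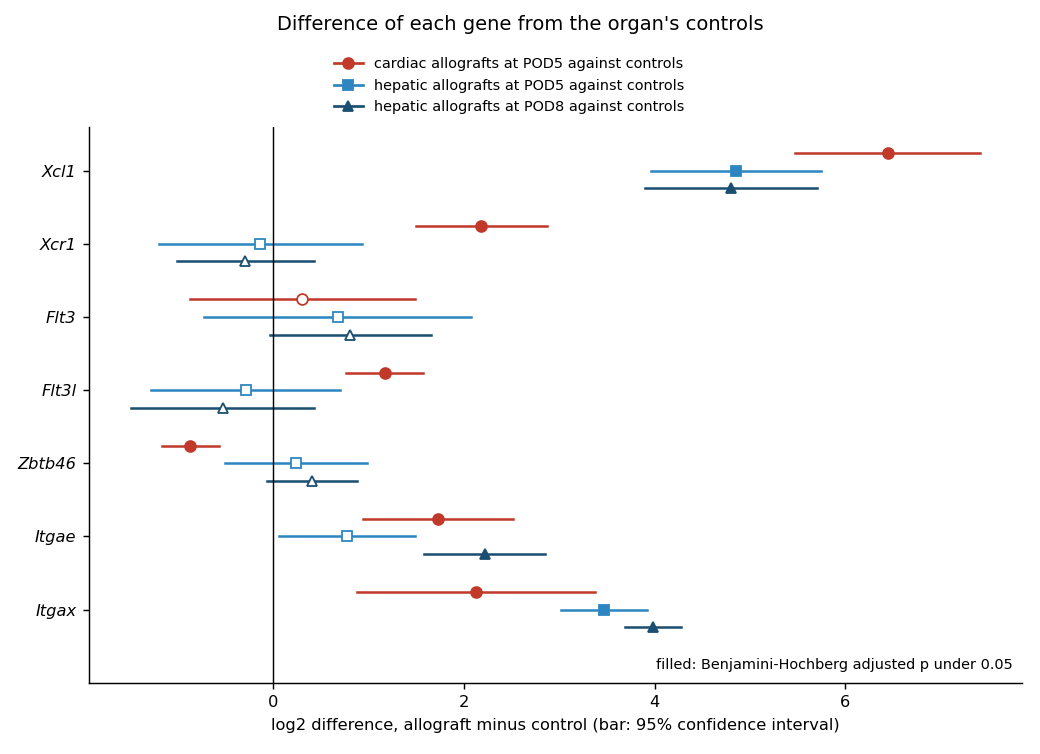
Difference in log2 signal between allografts and their organ's controls (horizontal axis) for the brightest probe of 7 genes (vertical axis), in 3 comparisons marked by color and shape. Points are limma estimates, bars are 95% confidence intervals, and filled points have a Benjamini-Hochberg adjusted P under 0.05. Xcl1 has the largest fitted difference in the heart, its hepatic points rest on controls below background, and Zbtb46 in the heart is the 1 filled point left of 0.

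Counted together, 5 of the 7 members were higher and 1 was lower in the cardiac allografts, where 15.5% of all genes were called higher and 15.2% lower. In the hepatic allografts at POD5, 2 of 7 were higher, against 2.50% of all genes, and none was lower, against 0.812%. At POD8, 3 of 7 were higher, against 3.54% of all genes, and none was lower, against 1.55%. The median difference of the members was 1.73, 0.68 and 0.81 in the cardiac, POD5 and POD8 comparisons. The median over all genes was 0.03, -0.08 and -0.11. Within the slide that held both groups at POD8, Xcl1 differed by 5.29, Itgax by 4.03 and Itgae by 2.16, sizes close to those over all 6 arrays, but with 2 arrays a side none was called (adjusted P 0.0533, 0.0533 and 0.0937). Between POD8 and POD5, limma called 0 of the 7 members and 0% of all genes, with Itgae and Itgax at an unadjusted P under 0.05. Both were also higher without overlap, as were 8.83% of all genes. The standardized fold change and the t test of the methods called none of the members either. The comparison of the cardiac with the hepatic difference at POD5 called 1 member higher, Xcr1 on its brighter probe, by 2.31 ± 0.53 (adjusted P = 0.0202), where 6.76% of all genes were called higher and 7.07% lower. That call was lost without the third cardiac control (adjusted P = 0.0554), and on the second probe the difference was 1.30 ± 0.77 (adjusted P = 0.281). The standardized fold change with Bonferroni adjustment called 1, 2 and 2 members in the cardiac, POD5 and POD8 comparisons with controls, against 0.615%, 0.908% and 0.935% of all genes, and none between the days, against 0.564%. Limma with Bonferroni adjustment called 1 member at POD8, against 0.111% of all genes, and none in the cardiac, POD5 and organ comparisons, against 0.236%, 0.0248% and 0.177%.

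Of 14 cDC1 genes, 11 were tested. In the cardiac allografts 8 of them rose and 1 fell, in the hepatic allografts 3 rose at POD5 and 6 did at POD8, and there none fell. Over all genes, 15.5% rose and 15.2% fell in the heart, and 2.50% and 3.54% rose in the liver at POD5 and POD8. Naaa, a lysosomal acid amidase, rose most in the heart, from 10.15, 9.63 and 9.66 in the cardiac controls to 14.45, 14.45 and 14.73 in the allografts. In the liver Naaa went from 8.66, 9.14 and 8.93 to 11.07, 11.24 and 11.31 at POD5 and 11.69, 11.70 and 11.61 at POD8. Its folds were 26.5, 4.92 and 6.76 (adjusted P = 0.000437, 0.00938 and 0.00262), and the cardiac difference was the larger by 2.43 ± 0.26 (adjusted P = 0.00101).

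The transcription factors on which cDC1 cells depend rose in both organs. Irf8, which macrophages and B cells also use, read 10.56, 9.85 and 10.23 in the cardiac controls and 13.93, 14.08 and 14.12 in the allografts, a fold of 14.3 (adjusted P = 0.000675), with folds of 5.10 and 6.78 in the liver at POD5 and POD8. Batf3, which activated T cells also express, rose 12.8-fold in the heart (3.68 ± 0.36, adjusted P = 0.00225) and 3.34-fold in the liver at POD8 (1.74 ± 0.14, adjusted P = 0.00676), and at POD5 its hepatic difference was 1.29 ± 0.25 (adjusted P = 0.0641). The cardiac differences of both were larger than the hepatic ones at POD5, by 1.48 ± 0.29 for Irf8 (adjusted P = 0.0117) and 2.39 ± 0.45 for Batf3 (adjusted P = 0.0104).

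The other cDC1 genes did not move as 1 group. Snx22, a sorting nexin, rose only in the cardiac comparison, by 2.65 ± 0.23 (adjusted P = 0.00169), and its difference from the hepatic value of -0.74 ± 0.60 passed the test (3.39 ± 0.68, adjusted P = 0.0123). Rab7b, a small GTPase of late endosomes, rose in the liver, by 1.68 ± 0.16 at POD5 and 1.56 ± 0.13 at POD8, and not in the heart (0.36 ± 0.22), again a difference past the threshold (adjusted P = 0.0168). Wdfy4, needed for cross-presentation, rose by 1.08 ± 0.24 in the heart and 1.67 ± 0.14 in the liver at POD8. Tlr3, a receptor of double-stranded RNA, rose in the heart by 1.02 ± 0.10 on its brightest probe and differed by 0.27 on the other (adjusted P = 0.0862). In the liver its brightest probe passed at neither day, but it read 5.57 to 6.29 at POD5 and 5.55 to 5.90 at POD8. The hepatic controls, 1 of the 3 not well above background, read 4.65 to 5.04, so neither day overlapped them, as for 12.2% and 11.9% of all genes. Cadm1, an adhesion molecule, did not pass on its brightest probe (0.58 ± 0.34 in the heart), whereas A_52_P116204, 1 of its 3 probes, rose in the heart by 1.70 ± 0.15 (adjusted P = 0.00184) and passed in no hepatic comparison with controls. Hepacam2 was above background in the cardiac controls alone, at 3.58, 3.71 and 4.30, and was at least 1.22-fold lower in the allografts (adjusted P = 0.0136).

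**Figure D5:**
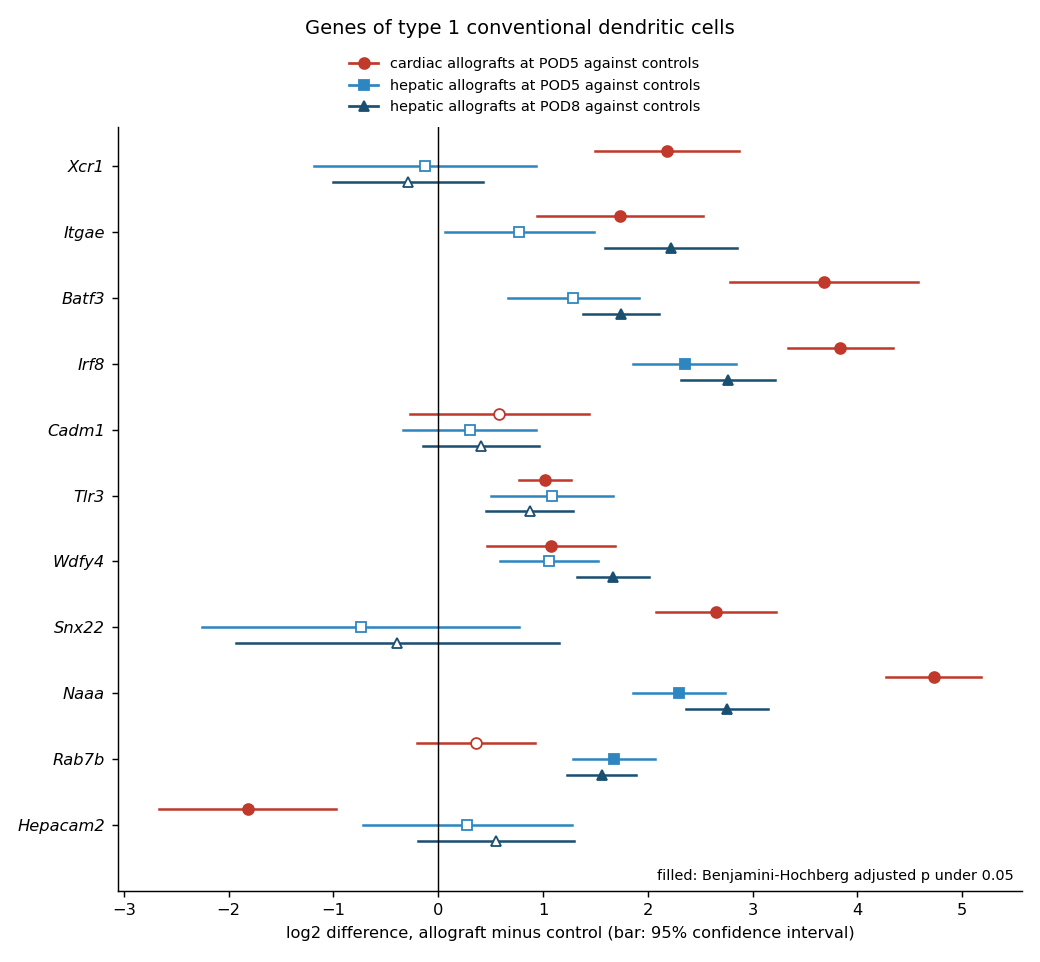
Difference in log2 signal between allografts and their organ's controls (horizontal axis) for the 11 cDC1 genes tested (vertical axis), in 3 comparisons marked by color and shape. Points are limma estimates, bars are 95% confidence intervals, and filled points have a Benjamini-Hochberg adjusted P under 0.05. The points of Naaa, Irf8, Batf3, Itgae, Wdfy4, Tlr3, Cadm1 and Rab7b lie right of 0 in all 3 comparisons, not all of them filled. Those of Rab7b lie farther right in the liver, and those of Snx22 and Xcr1 lie right of 0 in the heart alone.

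The cDC2 genes are of the branch known for priming CD4 T cells. Of 7 tested, 2 rose and 2 fell in the cardiac allografts, where 15.5% of all genes rose and 15.2% fell. Irf4, which activated T cells also express, rose by 3.26 ± 0.31 and Sirpa rose by 1.03 ± 0.20. Cd209a fell below background on all 3 allografts and was at least 3.50-fold lower (adjusted P = 0.0032), and Klf4 fell by 1.73 on the log2 scale (adjusted P = 0.00736). In the liver no cDC2 gene fell. Irf4, dim in all hepatic controls, was higher by at least 4.17-fold at POD5 and, at POD8, by at least 2.42-fold, Sirpa rose by 1.45 ± 0.20 and 1.79 ± 0.11, and Clec10a rose at POD8 by 1.77 ± 0.24.

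Among 12 shared cDC genes and growth factors, 7 rose and 3 fell in the heart, 2 rose in the POD5 liver and 4 in the POD8 liver. For these counts and those of the mature genes below, 15.5% of all genes rose and 15.2% fell in the heart. In the liver 2.50% of all genes rose at POD5 and 3.54% at POD8. Besides Itgax and Flt3l, the growth factor Csf2 rose in the cardiac allografts, from 2.05, 2.46 and 3.08, 2 of which were below background, to 4.83, 7.21 and 6.25 (3.57 ± 0.66, adjusted P = 0.0135). In the liver Csf2 was above background on no POD5 array and on 2 of 3 at POD8. It was above background on no hepatic control either, so the higher signal at POD8 (adjusted P = 0.0435) has no measured fold. Besides Zbtb46, Kitl, the ligand of the receptor Kit, and Zeb2, a transcription factor, fell in the heart, by 1.24 and 0.96 on the log2 scale, the latter not past the test on another probe (-0.41, adjusted P = 0.253). The receptor chains of Csf2 rose in the heart, Csf2ra by 1.25 ± 0.25 and Csf2rb by 1.90 ± 0.26, and in the liver Csf2ra rose at both days and Csf2rb at POD8 on its brightest probe, with a value of -0.32 on another probe. Of 11 genes of mature dendritic cells, 6 rose and 1 fell in the heart, none passed at POD5 in the liver (5 of 11 lay above the controls without overlap, as did 12.2% of all genes) and 4 rose at POD8. Cd40, the receptor of T cell help, rose by 3.69 ± 0.24 in the heart and 2.68 ± 0.45 at POD8 in the liver, and Ccr7, which guides migration to lymph nodes, by 2.43 ± 0.28 and 3.26 ± 0.55. Of the 3 hepatic controls, Cd40 was well above background on 2 and Ccr7 on 1, so these hepatic sizes rest partly on dim signals. Cd83, a surface marker of maturation, rose by 0.94 ± 0.18 in the heart and 2.83 ± 0.26 at POD8. Socs2, an inhibitor of cytokine signaling, was the gene of this list that fell, by 1.07 on the log2 scale in the heart. Il15ra, which presents interleukin 15 to T and NK cells, rose by 3.02 ± 0.12 in the heart and not in the liver, a difference of 3.97 ± 0.64 (adjusted P = 0.00567).

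Over these lists together, 41 of 47 genes were tested. In the heart 23 rose and 7 fell, where 15.5% of all genes rose and 15.2% fell, with a median of 1.01. In the liver 7 rose at POD5, 17 did at POD8 and 0 fell, with medians of 0.68 and 0.90. Over all genes, 2.50% rose and 0.812% fell at POD5, and 3.54% rose and 1.55% fell at POD8. The hepatic counts changed when 1 array was left out. At POD5 the count was 1 without allograft replicate 1 or 2. Over all probes these fits called 77 higher and 3 lower, and 28 and 0, against 1301 called as reported. At POD8 the count was 5, 4 and 9 without allograft replicates 1, 2 and 3. Over all probes these fits called 289 higher and 11 lower, 323 and 18, and 518 and 75, against 2046 called as reported. The calls thus fell over all probes too. Between POD8 and POD5 none of the 41 was called by limma, with 15 at an unadjusted P under 0.05, as had 5299 of all 41165 probes.

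Genes of other cells were counted in the same way, and the part of these cells in the values above was not tested. None of 5 B cell genes passed the test in any comparison with controls, although 1 lay above the controls without overlap in the heart, as did 30.0% of all genes. Of 5 neutrophil genes, Csf3r rose and Retnlg and Cxcr2 fell in the heart, where 15.5% of all genes rose and 15.2% fell, and none passed in the liver. Of 5 cardiomyocyte genes, Ryr2 and Tnni3 fell in the cardiac allografts, by 1.53 and 0.98 on the log2 scale (Ryr2 not on its other probe, at -0.56), and of 4 hepatocyte genes none passed in the liver.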

How the data were processed

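Total RNA of 15 grafts and control organs was hybridized to single-colour Agilent arrays, and the deposited scanner files of Feature Extraction 10.5.1.1 hold a processed signal intensity per spot, which that program had background-corrected. The authors' own values (natural log, quantile normalization) were not used here. From the deposited intensities, outlier spots (47 to 113 per array) were left out, none being saturated, log2 was taken, spots of a probe were averaged, and all 15 arrays were quantile normalized. Groups followed the labels. The groups of each of 5 comparisons were fitted with limma 3.58.1 (R 4.3.3), Benjamini-Hochberg adjusted over all probes at 0.05, with no filter on dim probes. The fifth comparison is the cardiac minus the hepatic difference at POD5.

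The files pair probes with transcript accessions only. RefSeq names (GRCm38.p6) covered 64.8% of the 41174 probes, and a gene is represented by its brightest probe. A probe below background on all arrays of a group has only a bound there, set by the higher of its own signal and the dimmest signal well above background. Every fold given as at least some value rests on this bound. It holds for the main normalization and is not a lower limit under other processing. The number of arrays, 3 per group, limits precision, and an exact permutation test of 3 against 3 cannot go below 0.1. Genes named were the members, the cDC1 genes, from each other list and comparison with controls up to 3 with the largest difference among those called without overlap, and the 5 closest to Xcl1 among probes well above background on at least 9 arrays. Other list genes were named after their values were seen. The members, lists and motifs were chosen with earlier results of these data known. The script was tested on simulated data. The alternatives were other normalizations, normexp (offset 50) on median signals, a filter on dim probes, 1 fit of all groups, other priors, the methods' t-test and standardized fold change (SFC), Bonferroni adjustment, blocks and leaving out arrays. Figures were drawn with matplotlib 3.10.9 (Python 3.11.15).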

Additional observations from a re-analysis of the deposited data

Results flagged for a closer look

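The difference between allografts and controls at POD5 for Xcr1 differed between the organs on 1 of its 2 probes. On the brighter probe the cardiac difference exceeded the hepatic one by 2.31 ± 0.53 (interaction term in limma, adjusted P = 0.0202), with cardiac allografts higher by 2.19 and hepatic allografts at -0.13 against their controls. All 3 cardiac allografts lay above all 3 cardiac controls, whereas the hepatic groups overlapped. On the second probe the excess was 1.30 ± 0.77 (adjusted P = 0.281), with hepatic allografts above their controls, and on the brighter one the call was lost without the third cardiac control (adjusted P = 0.0554).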

How the results depend on the processing

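The count of members called in the cardiac comparison, 6 of 7, was 1 by SFC and 0 by limma with Bonferroni adjustment, and 4 to 6 with 1 array left out (4 without the first cardiac control). Over all 41025 probes, 13116 were called as reported, and without that control 3868 were higher and 4085 lower of 41074. At POD5 in the liver the count of 2 was 0 with Bonferroni adjustment and with the replicate block, and 1 to 2 with 1 array left out (1 without the first or the second allograft). Over all 41155 probes, 1301 were called as reported and 0 with the replicate block. Without the first allograft 77 were higher and 3 lower, and without the second 28 and 0. At POD8 the count of 3 was 1 with Bonferroni adjustment, 0 with the replicate block, 0 with slide as a fixed block, 0 within the slide that held both groups (both chosen after seeing the data) and 2 to 3 with 1 array left out. Over all 41157 probes, 2046 were called as reported. The replicate block, slide as a fixed block and the fit within the slide each called 0 of them. The 2 slide settings gave the same values and are 1 estimate, because the other slides of this comparison held 1 array each. Between POD8 and POD5 it was 0 in every setting run. For the cardiac against the hepatic difference, the count of 1 was 5 with scaling to the 75th percentile, 2 with normexp, 3 with the filter on dim probes, 4 with 1 fit of all groups, 0 with Bonferroni adjustment, 2 when any probe counted and 0 to 2 with 1 array left out (0 without the third cardiac control). Over all 41006 probes, 5605 were called as reported, and 12830 higher and 2766 lower with scaling. With normexp it was 2434 and 3110, with the filter 2602 and 3241 of 28582, and with 1 fit 3499 and 3886 of 41003. Without the third cardiac control it was 1295 and 1581.

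For the 41 dendritic cell genes, the cardiac count of 30 was 2 by SFC, 2 with Bonferroni adjustment and 20 to 30 with 1 array left out. The POD5 count of 7 was 12 with normexp, 16 with the filter, 18 with 1 fit of all groups, 4 by the methods' t-test, 2 by SFC, 0 with Bonferroni adjustment, 0 with the replicate block, 4 with slide as a random block and 1 to 6 with 1 array left out. The POD8 count of 17 was 8 by the t-test, 5 by SFC, 1 with Bonferroni adjustment and 0 with the replicate block. It was 0 with slide as a fixed block or, as the same estimate, within the slide, and 4 to 14 with 1 array left out. The calls over all probes changed with these settings too, as given above. At POD5 the filter called 1595 probes higher and 609 lower of 23754, and 1 fit of all groups 3331 and 2874 of 41003. The labels do not say whether the replicate numbers pair the samples. Deviations of same-numbered arrays correlated at -0.12 to 0.04, which with 3 arrays per group cannot settle it. Reversed values were those of Apoa1 in the heart with scaling to the 75th percentile (0.0121), Ryr2 in the liver at POD5 with normexp (0.0226), Xcr1 at POD8 on its second probe (3.25) and Pacsin1 in the comparison of organs on another probe (1.82). Scaling to the 75th percentile moved the median of all probes to 0.47 in the heart, -0.38 and -0.46 in the liver at POD5 and POD8, -0.14 between the days and 0.64 between the organs. Fits of fewer arrays have fewer degrees of freedom, and for the other changes the cause was not tested. Dim signals in the hepatic controls limit what can be said of Xcl1 and of the second probe of Xcr1 there.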

Other observations

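Genes of plasmacytoid dendritic cells, known for releasing type I interferon, were counted as a separate list of 8. In the heart 2 rose and 2 fell, where 15.5% of all genes rose and 15.2% fell. In the liver 1 rose at POD5 and 2 at POD8, against 2.50% and 3.54% of all genes, and none fell. Pacsin1 rose in the heart on all 3 of its probes. On the brightest it read 5.19, 5.29 and 5.05 in the cardiac controls and 6.85, 6.73 and 6.99 in the allografts, a difference of 1.68 ± 0.11 (limma, adjusted P = 0.00106). In the liver its probes did not give the same picture. On the brightest, Pacsin1 was above background on no control array and was at least 5.23-fold higher at POD5 (adjusted P = 0.0381) and at least 4.54-fold higher at POD8 (adjusted P = 0.0327). On A_52_P200960 the controls read 5.75, 5.07 and 5.39 and the differences were -0.66 at POD5 and -1.13 at POD8 (adjusted P = 0.322 and 0.0602). Ccr9, a chemokine receptor, rose in the heart by 1.09 ± 0.10. Tcf4, the transcription factor of this lineage, which other tissue cells also express, fell there by 1.09 on the log2 scale on its brightest probe (adjusted P = 0.0159) and read -0.03 on another. The other gene of the list that fell there was Cox6a2, at a mean of 17.25 in the cardiac controls and 16.25 in the allografts. Its means in the hepatic groups were 5.72 to 6.52. It was thus bright in the normal heart, and the part of plasmacytoid cells in its signal was not tested. Siglech, a surface receptor, was called higher at POD8 (adjusted P = 0.0134), but it was well above background on 1 of those 3 arrays and on no control array, so it has no measured fold.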
